A study of Mus musculus with 4 samples.

Results

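The genes described here are 8 Dex-responsive genes of mouse neuroblastoma cells, Slc10a6, Tdo2, Trim63, Asic5, Fam13a, Rufy4, Pla2g4d and Lrp4. They were selected on measured values of these same libraries. The study listed the first 6 for Dex over Veh in siControl cells and the last 2 for Dex over Veh in siArglu1 cells. All 8 were found by symbol among the 22667 genes of the expression table, and all 8 were among the 12497 genes that reached 75 reads summed over the 4 libraries and were compared. The cells were Neuro-2a (N2a), an established mouse neuroblastoma line. Arglu1, which encodes a coactivator of the glucocorticoid receptor (GR), was knocked down for 48 h with siRNA (siArglu1), and a non-targeting siRNA served as the control (siControl). For the next 4 h both kinds of culture were given EtOH as vehicle (Veh) or the synthetic glucocorticoid dexamethasone (Dex) at 100 nM. This makes 4 groups, and RNA of 3 cultures was pooled into 1 polyA library for each. With 1 library per group there was no replicate error, and single pairs of libraries were compared by size without a test. All intervals below are 95% intervals that cover counting error only. The p-values given come from an additive model over all 4 libraries, which has 1 residual degree of freedom.

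GR is a ligand-activated transcription factor. On binding a glucocorticoid it enters the nucleus, where it binds DNA as a dimer at palindromic glucocorticoid response elements or is recruited through other factors, and coactivators carry its signal to the transcription machinery. In liver it raises enzymes of amino acid catabolism, in skeletal muscle it raises ubiquitin ligases of protein breakdown, and in neural and neuroendocrine cells it raises genes of catecholamine synthesis and the circadian clock.

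The libraries held 66074574 to 86541444 reads on genes, the most in siArglu1 Dex, and their TMM scaling factors lay between 0.984 and 1.007. Arglu1 itself was at 26.3% of its siControl level in siArglu1 Veh (25.2 to 27.5) and at 22.5% in siArglu1 Dex (21.7 to 23.4), so a part of the transcript was still present. Of 11 markers fixed for N2a cells, 9 reached 1 cRPKM (the authors' mappability-corrected RPKM) in every library, among them Hand2, Tubb3 and Th, while the neurofilament genes Nefl and Nefm had at most 9 reads in any library. None of 6 fibroblast, 5 macrophage and 4 hepatocyte markers reached 1 cRPKM in any library. Of 4 skeletal muscle markers only Acta1, which encodes skeletal muscle actin, did so. It had 35 reads with Veh and 37 with Dex in siControl, and 348 and 481 in siArglu1. Myod1 had no read, and Ckm and Myog had at most 4 reads in any library.

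The 8 genes were scarce transcripts whose summed level was higher with Dex and also with knockdown. Together they held 147 reads with Veh and 897 with Dex in siControl, and 345 and 2091 in siArglu1. After scaling, their summed level in siControl was 2.21 CPM (reads scaled per 1000000) with Veh and 12.6 with Dex, and in siArglu1 it was 5.26 with Veh and 24 with Dex. Both Dex libraries were thus above both Veh libraries, and each siArglu1 library was above its siControl partner. The genes were listed on Dex ratios of these libraries, so the higher sums with Dex are given as a description. In Veh the selection favours a low siControl level for the 6 genes listed on that pair. In Dex it favours a high siControl level for these 6 and a high siArglu1 level for Pla2g4d and Lrp4. Slc10a6 and Pla2g4d held most of the reads in siArglu1 Dex. In Veh none of the genes reached 1 cRPKM in either state, with Dex Slc10a6 alone did so in siControl, and Slc10a6 and Pla2g4d did so in siArglu1. The median cRPKM of all compared genes lay between 10.3 and 11 in the 4 libraries. Even its highest level, 4.81 cRPKM in siArglu1 Dex, placed Slc10a6 only at percentile 60.5 of the table, and in siControl Veh the 8 genes lay between percentile 29.5 (Pla2g4d) and percentile 44 (Rufy4). In these bulk libraries, more RNA per cell and more cells expressing a gene cannot be told apart.

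**Figure D1:**
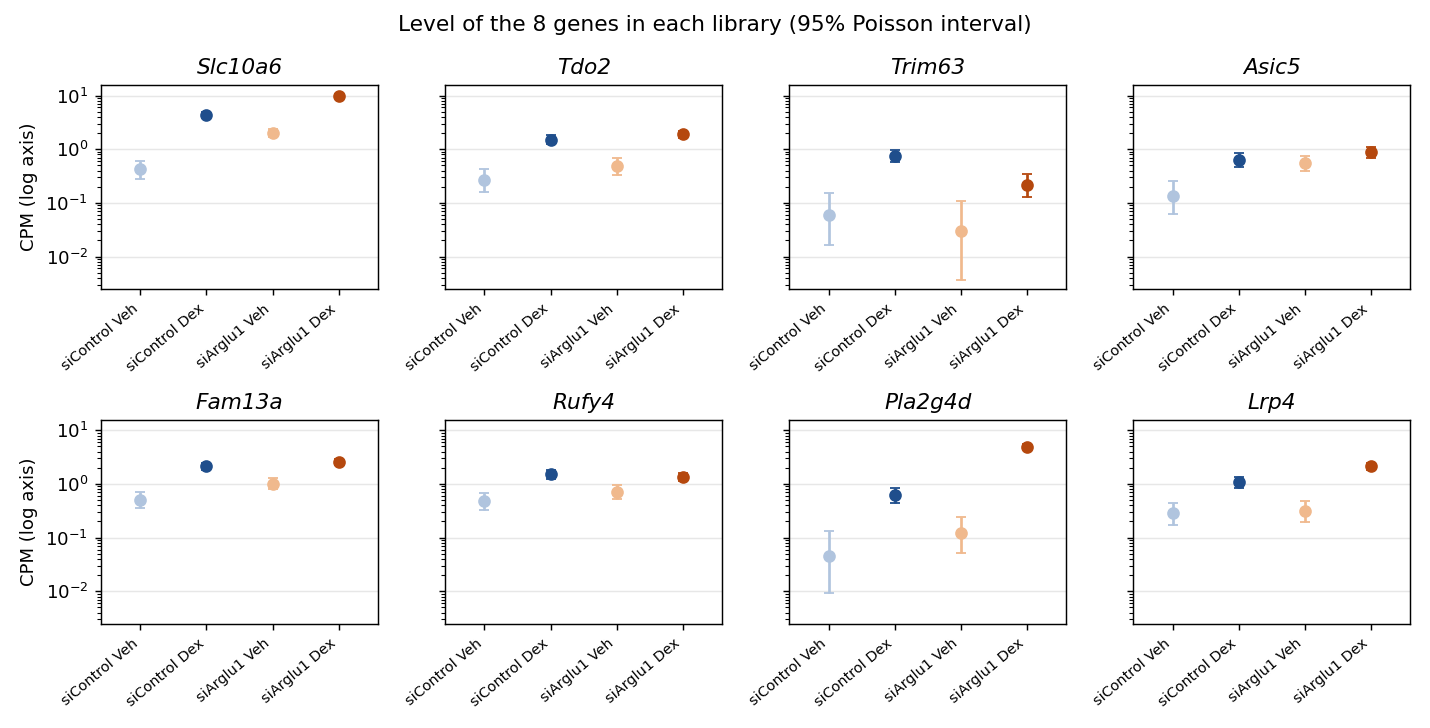
Level of each of the 8 genes in the 4 libraries, in scaled CPM on a log axis, with the exact 95% Poisson interval of the reads as bars. Each gene is higher in Dex than in Veh in both states, Pla2g4d reaches 4.97 CPM in siArglu1 Dex against 0.617 in siControl Dex, and Trim63 is lower in siArglu1 Dex (0.218) than in siControl Dex (0.757). The genes were selected on Dex ratios of these libraries.

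Upstream sequence was available from RefSeq (GRCm38.p6) for 7 of the 8 genes, for which the 250 bases before and 50 bases after the gene start were searched. Lrp4 was not analysed here. The letters searched were the hexamer AGAACA or its reverse complement TGTTCT, the unit of the glucocorticoid response element, on both strands, and the palindrome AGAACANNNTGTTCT, which reads the same on both strands and contains the hexamer. The hexamer was found in the windows of Slc10a6 and Trim63, against 19% of the 32851 windows of the table. The whole palindrome was in none of the 7 windows and in 3 of the 32851 (0.00913%). After these sequences had been seen, the search was repeated with differing bases allowed among the 12 fixed positions. With at most 1 differing base the palindrome was present in the window of Trim63 and in 0.164% of all windows, and with at most 2 in those of Trim63 and Slc10a6 and in 1.84% of all windows. Both sequences are shown because they are the ones that hold a match, 5′ to 3′ on the strand of the gene and ending at the base before its start, with the closest match to the palindrome in capitals. The Slc10a6 sequence is chr5:103629404-103629653 on the minus strand, and the Trim63 sequence is chr4:134314870-134315119 on the plus strand, both in GRCm38.p6.
Slc10a6: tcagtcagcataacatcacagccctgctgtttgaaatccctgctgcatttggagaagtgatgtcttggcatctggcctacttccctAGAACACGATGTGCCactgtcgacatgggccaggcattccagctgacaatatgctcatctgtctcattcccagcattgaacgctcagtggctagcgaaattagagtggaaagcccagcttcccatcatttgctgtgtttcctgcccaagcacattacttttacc
Trim63: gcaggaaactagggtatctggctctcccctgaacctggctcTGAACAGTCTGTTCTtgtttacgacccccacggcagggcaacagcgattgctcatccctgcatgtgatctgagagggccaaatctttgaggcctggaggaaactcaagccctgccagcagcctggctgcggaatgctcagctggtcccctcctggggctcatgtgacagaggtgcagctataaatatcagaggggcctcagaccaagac
Counted from 1 at the 5′ end of the palindrome, the Trim63 match TGAACAGTCTGTTCT differs by A1T and begins 209 bases upstream of the start. The Slc10a6 match AGAACACGATGTGCC differs by T13G and T15C and begins 164 bases upstream. In the windows of Tdo2, Asic5, Fam13a, Rufy4 and Pla2g4d the closest stretch differed from the palindrome at 4 bases. A match in this window is a description of letters, and binding at it was not measured in these files.

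With Dex in siControl cells, all 8 genes passed a log2 ratio of 1 in CPM, as 0.320% of all compared genes did. This count is fixed by how 6 of the genes were listed and is given as a description. Their log2 ratios ran from 1.64 for Rufy4 to 3.42 for Pla2g4d with a median of 2.27, where the median of all genes was 0.00, and they took ranks 3 to 13 among 12497. For Pla2g4d and Lrp4 these are libraries that their listing did not use, and they stood at rank 3 and rank 10. Pla2g4d, however, reached the minimum on summed reads only through siArglu1 Dex (433 reads, against 3, 44 and 8 elsewhere). That library was part of the pair that listed it, so its rank 3 is not independent of the listing. Without the minimum, 913 genes rather than 40 were higher with Dex in siControl. With Dex in siArglu1 cells, 6 of the 8 passed, against 0.328% of all genes, with a median log2 ratio of 2.11. The siArglu1 pair was not used to list the 6 genes listed on siControl libraries. Of these, Slc10a6, Tdo2, Trim63 and Fam13a passed again at ranks 5 to 16. Rufy4 was just below the threshold at 0.92 (rank 61) and Asic5 was at 0.65 (rank 171). Trim63 reached the minimum on summed reads only through siControl Dex (54 reads, against 4, 2 and 19 elsewhere). That library was part of the pair that listed it, so its rank in siArglu1 is not an independent repeat. Without the minimum, 610 genes rather than 41 were higher with Dex in siArglu1. The lower limits of all 8 ratios were above 0 in both states. An additive model of knockdown and Dex over all 4 libraries (edgeR quasi-likelihood, Benjamini-Hochberg adjusted p of 0.05, 1 residual degree of freedom) called all 8 higher with Dex, as it did 0.992% of genes, on libraries that chose them.

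**Figure D2:**
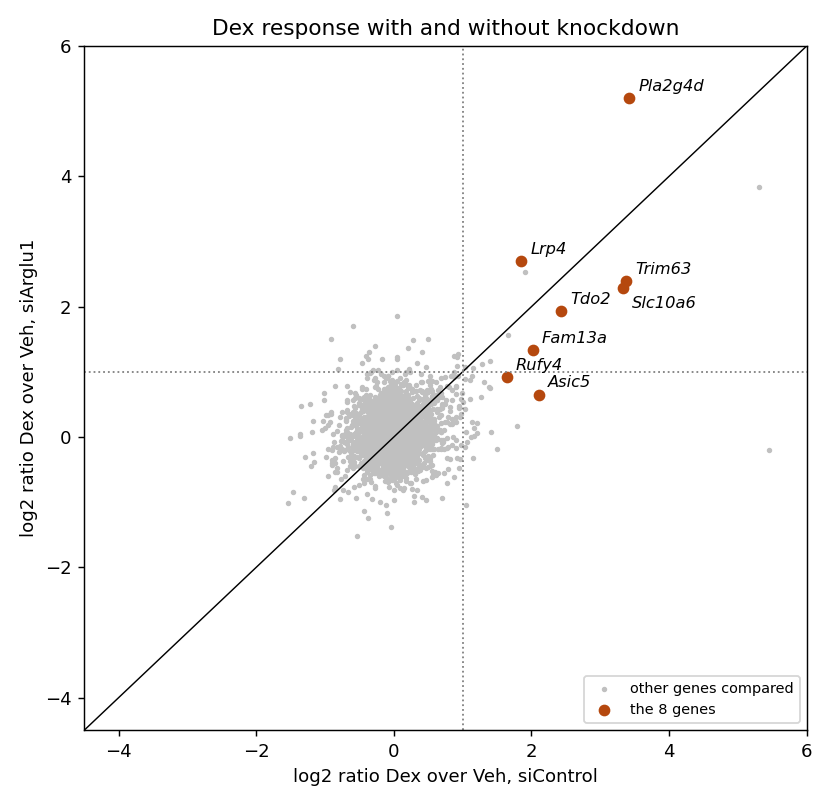
Log2 ratio of CPM, Dex over Veh, in siControl (x axis) and in siArglu1 (y axis) for the 12497 compared genes, drawn in grey with the 8 genes in orange, with dotted lines at a log2 ratio of 1 and the line of equal ratios. The 8 genes lie away from the bulk of genes, Pla2g4d and Lrp4 above the line of equal ratios and the other 6 below it, an order that is not independent of how they were chosen.

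Slc10a6 (ENSMUSG00000029321, chromosome 5) encodes SOAT, a sodium-dependent transporter of sulphated steroids in the bile acid transporter family. It had 28 reads with Veh and 310 with Dex in siControl, and 132 and 864 in siArglu1, or 0.421, 4.35, 2.01 and 9.92 CPM in the same order. The 4 levels did not overlap within their counting intervals, and it was the most abundant of the 8 per length in every library but siControl Veh. The Dex ratio was 3.33 on the log2 scale in siControl (2.81 to 3.98), a 10-fold difference, and 2.29 in siArglu1 (2.03 to 2.58), a 4.9-fold difference. The smaller ratio stood beside a larger rise in level. Dex added 3.93 CPM in siControl (3.42 to 4.46) and 7.9 CPM in siArglu1 (7.15 to 8.66). In Veh, knockdown cells were 2.22 higher on the log2 scale (1.66 to 2.90) and already held 46.3% (37.5 to 57) of the level that control cells reached with Dex. This gene carries the hexamer match shown above at 164 bases upstream.

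Tdo2 (ENSMUSG00000028011, chromosome 3) encodes tryptophan 2,3-dioxygenase, the hepatic enzyme that opens the indole ring of tryptophan at the start of the kynurenine pathway and a classic glucocorticoid-induced gene of liver. It had 18 reads with Veh and 108 with Dex in siControl, and 32 and 166 in siArglu1. Both Dex libraries were well above both Veh libraries, and within Veh and within Dex the 2 states had overlapping intervals. The Dex log2 ratio was 2.43 in siControl (1.76 to 3.29) and 1.93 in siArglu1 (1.41 to 2.56), and the rise was 1.24 CPM (0.93 to 1.58) and 1.42 CPM (1.07 to 1.77). Its knockdown log2 ratio was 0.82 in Veh (-0.02 to 1.77) and 0.33 in Dex (-0.03 to 0.69). The value in Veh was at the threshold of 0.81 used for knockdown and dropped under it with unscaled libraries (0.79), with a prior count of 3 (0.76) and in cRPKM (0.58). None of 4 hepatocyte markers reached 1 cRPKM, and Tat, another glucocorticoid-induced liver enzyme, had no read.

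Pla2g4d (ENSMUSG00000070719, chromosome 2) encodes a cytosolic phospholipase A2 of group IV, an enzyme that releases fatty acids from membrane phospholipids and is known from skin. It had 3 reads with Veh and 44 with Dex in siControl, and 8 and 433 in siArglu1. The siArglu1 Dex library stood far above the other 3, and both Veh libraries were near 0 with overlapping intervals. The Dex log2 ratio was 3.42 in siControl (2.13 to 6.11), rank 3, and 5.20 in siArglu1 (4.36 to 6.57), the highest of all 12497 genes in that pair, on which it was listed. Between the Dex libraries the log2 ratio of siArglu1 over siControl was 2.98 (2.56 to 3.49). In Veh it was 1.21 (-0.62 to 3.99), on 3 and 8 reads, and fell to 0.42 when cRPKM with a pseudocount of 0.05 were used. The rise with Dex was 0.572 CPM in siControl (0.382 to 0.786) and 4.85 CPM in siArglu1 (4.37 to 5.34). The order of its levels per length moved with the library, from the lowest of the 8 in siControl Veh, where it overlapped Trim63, to second place in siArglu1 Dex, where it overlapped no other.

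Trim63 (ENSMUSG00000028834, chromosome 4) encodes MuRF1, a ubiquitin ligase that marks muscle proteins for breakdown and a known direct GR target in muscle. It had 4 reads with Veh and 54 with Dex in siControl, and 2 and 19 in siArglu1, a sum barely over the minimum of 75. Both Veh libraries were at a handful of reads, and the siArglu1 Dex library was below the siControl Dex library without overlap of their intervals. It was the only one of the 8 that was lower with knockdown at the threshold, by a log2 ratio of -1.73 in Dex (-2.63 to -1.02), while in Veh the ratio was -0.74 (-4.44 to 1.83) on 4 and 2 reads. The Dex log2 ratio was 3.38 in siControl (2.22 to 5.58) and 2.39 in siArglu1 (0.79 to 5.98). Dex added 0.697 CPM in siControl (0.487 to 0.932) and 0.188 CPM in siArglu1 (0.0697 to 0.313). Its upstream window is the one with the near-complete palindrome shown above, 209 bases before the start. No read fell on Myod1 and few on the other muscle markers, except for Acta1, which was higher in siArglu1 by a log2 ratio of 3.30 in Veh and 3.38 in Dex, opposite to Trim63. The part of Acta1-expressing cells in these values was not tested.

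Asic5 (ENSMUSG00000028008, chromosome 3) encodes a cation channel of the acid-sensing channel family that is gated by bile acids. It had 9 reads with Veh and 45 with Dex in siControl, and 36 and 76 in siArglu1. The siControl Veh library stood apart at the low end, and the siArglu1 Veh and siControl Dex libraries overlapped. Vehicle-treated knockdown cells thus held 87.1% (54.6 to 138) of the level of control cells with Dex, the largest such share of the 8. The knockdown log2 ratio was 1.92 in Veh (0.94 to 3.26) and 0.46 in Dex (-0.08 to 1.03), and the Dex log2 ratio was 2.11 in siControl (1.17 to 3.44) and 0.65 in siArglu1 (0.08 to 1.28). In absolute terms Dex added 0.496 CPM in siControl (0.286 to 0.721) and 0.323 CPM in siArglu1 (0.0422 to 0.597), values whose intervals overlapped.

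Lrp4 (ENSMUSG00000027253, chromosome 2) encodes the receptor of the LDL receptor family that binds agrin at the neuromuscular junction and also tempers Wnt signalling. It had 19 reads with Veh and 76 with Dex in siControl, and 21 and 188 in siArglu1. The Veh libraries were alike within wide limits, with a knockdown log2 ratio of 0.16 (-0.80 to 1.14), and the Dex libraries were apart, at 1.01 (0.63 to 1.42). The latter went to 0.80, under the threshold of 0.81, in cRPKM with a pseudocount of 0.05. The Dex log2 ratio was 1.85 in siControl (1.16 to 2.71) and 2.70 in siArglu1 (2.10 to 3.48), rank 3 in that pair, on which it was listed. Dex added 0.78 CPM in siControl (0.503 to 1.07) and 1.84 CPM in siArglu1 (1.49 to 2.19).

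Fam13a (ENSMUSG00000037709, chromosome 6) encodes a protein that is known from genetic studies of lung function. It had 34 reads with Veh and 151 with Dex in siControl, and 67 and 226 in siArglu1. Both Dex libraries were above both Veh libraries, and the knockdown library was the higher of each pair. The Dex log2 ratio was 2.02 in siControl (1.51 to 2.63) and 1.33 in siArglu1 (0.94 to 1.76), but the rise was nearly the same, 1.61 CPM (1.22 to 2) and 1.57 CPM (1.14 to 2). The knockdown log2 ratio was 0.98 in Veh (0.38 to 1.64) and 0.29 in Dex (-0.01 to 0.60). In cRPKM with a pseudocount of 0.05 the value in Veh was 0.77, under the threshold.

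Rufy4 (ENSMUSG00000061815, chromosome 1) encodes a RUN and FYVE domain protein with a role in autophagy. It had 32 reads with Veh and 109 with Dex in siControl, and 47 and 119 in siArglu1. Within Veh and within Dex the 2 states overlapped. The Dex log2 ratio was 1.64 in siControl (1.09 to 2.29) and 0.92 in siArglu1 (0.43 to 1.45), with a rise of 1.05 CPM (0.71 to 1.4) and 0.649 CPM (0.316 to 0.978). The knockdown log2 ratio was 0.56 in Veh (-0.10 to 1.27) and -0.16 in Dex (-0.55 to 0.23), and both intervals include 0. It was the most abundant of the 8 per length in siControl Veh at 0.269 cRPKM (0.184 to 0.38), a level that overlapped the next, Slc10a6 at 0.204 (0.136 to 0.295).

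**Figure D3:**
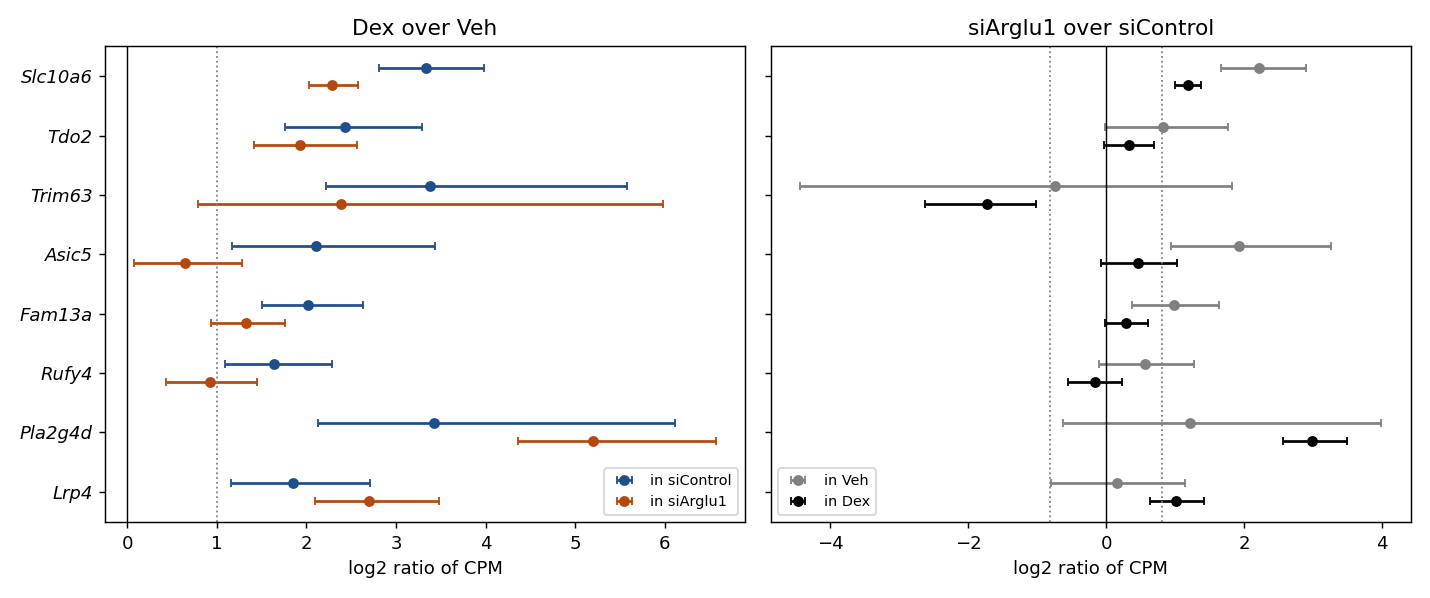
Log2 ratios of CPM for the 8 genes with their 95% counting intervals, at left Dex over Veh in siControl and siArglu1 with a dotted line at 1, at right siArglu1 over siControl in Veh and Dex with dotted lines at 0.81 in either direction. All Dex ratios lie above 0, the knockdown ratios in Dex range from -1.73 (Trim63) to 2.98 (Pla2g4d), and the intervals that rest on the few Veh reads of Trim63 and Pla2g4d are wide.

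Whether the response to Dex differed with the level of Arglu1 was described first as a difference of the log2 ratios, siArglu1 minus siControl, from the 4 counts of each gene. The difference was below 0 for the 6 genes listed on the siControl pair and above 0 for the 2 listed on the siArglu1 pair, a split that their selection favours. Its interval lay below 0 for 3 genes. These were Slc10a6 at -1.07 (-1.74 to -0.44), Asic5 at -1.55 (-2.92 to -0.31) and Fam13a at -0.71 (-1.42 to -0.01), the last with an upper limit next to 0. For Rufy4 it was -0.74 (-1.54 to 0.05), for Tdo2 -0.52 (-1.52 to 0.44) and for Trim63 -0.81 (-3.75 to 2.76). For Pla2g4d it was 1.57 (-1.03 to 3.69) and for Lrp4 0.85 (-0.21 to 1.90), so that at these reads a difference in either direction was within counting error for 5 of the 8.

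In CPM gained, the order was another. Dex added more in siArglu1 than in siControl for 4 of the 8 genes, and the intervals of the 2 gains did not overlap for 4. Among these, Slc10a6, Pla2g4d and Lrp4 gained more in siArglu1 and Trim63 gained more in siControl. The gains use the same pairs of libraries that listed the genes. For Pla2g4d, Lrp4 and Trim63 the selection favours the direction seen, and for Slc10a6 it favours the opposite one. For Slc10a6 the ratio and the gain pointed in opposite directions, and for Tdo2 they did so within overlapping intervals of the gain. Of the 3 genes whose ratio was smaller in siArglu1 beyond counting error, Slc10a6 thus gained more, Fam13a gained about the same and Asic5 gained less within overlapping intervals.

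**Figure D4:**
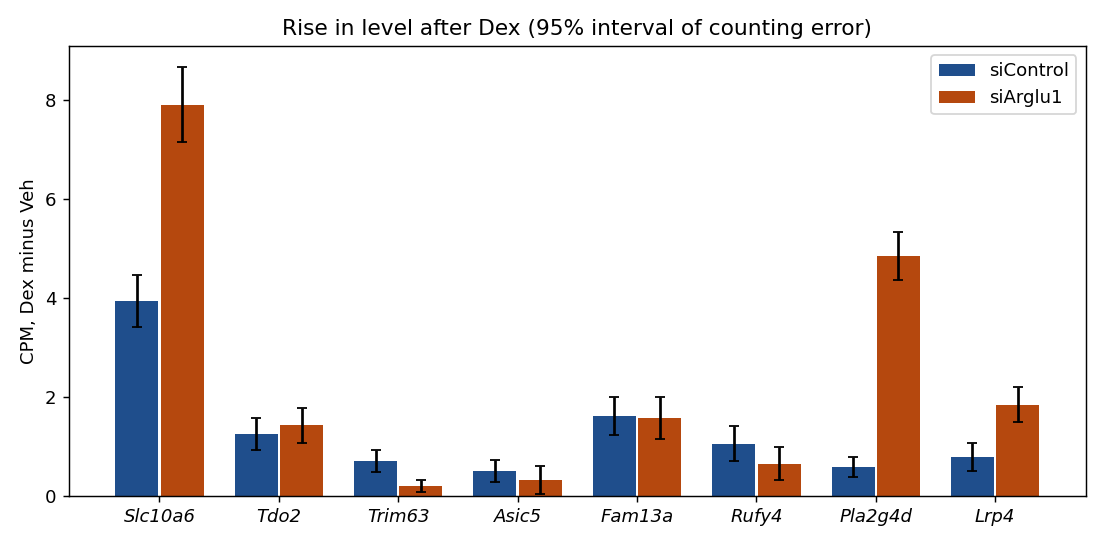
Rise in scaled CPM, Dex minus Veh, in siControl and siArglu1 for each of the 8 genes, with 95% intervals of counting error as bars. The bars separate for Slc10a6, Trim63, Pla2g4d and Lrp4 and overlap for the other 4.

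The basal shift was compared in the 2 Veh libraries, each of which was also part of a pair that chose some of the genes. At a log2 ratio of 0.81, 5 of the 8 genes were higher in siArglu1 Veh, against 7.00% of all genes, and none was lower, against 8.77%. The median of the 8 was 0.90 and that of all genes 0.00. The 5 were Slc10a6, Asic5, Pla2g4d, Fam13a and Tdo2, and the intervals of Slc10a6, Asic5 and Fam13a were above 0. Slc10a6, Asic5, Fam13a and Tdo2 were listed on the siControl pair, which favours a low siControl Veh level and so the direction seen. For Pla2g4d, listed on the siArglu1 pair, the selection favours the opposite direction. The count of 5 is therefore not independent of the listing and is given as a description. Calls of the additive edgeR model, which assumes 1 knockdown effect for Veh and Dex, were higher for Slc10a6, Asic5, Fam13a, Pla2g4d and Lrp4, where 30.8% of all genes were called higher, and lower for Trim63, where 30.9% were. Tdo2 and Rufy4 had adjusted p-values of 0.0628 and 0.783 in that edgeR model.

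The level reached with Dex was compared in the 2 Dex libraries, each of which was also part of a pair that chose some of the genes. Here 3 of the 8 genes were higher in siArglu1, Pla2g4d, Slc10a6 and Lrp4, against 6.19% of all genes, and Trim63 was lower, against 5.93%. For Pla2g4d, Lrp4 and Trim63 the selection favours the direction seen, and for Slc10a6 it favours the opposite one. The median of the 8 was 0.40. The intervals of these 4 genes were clear of 0, and those of Tdo2, Asic5, Fam13a and Rufy4 included it. The level that control cells had with Dex was not reached by knockdown cells in Veh for 7 of the genes. The selection favours a low share here. It favours a high siControl Dex level for the 6 genes listed on the siControl pair. For Pla2g4d and Lrp4 it favours a low siArglu1 Veh level. Beside the 87.1% of Asic5, the share was 48.3% (35.7 to 64.8) for Fam13a, 46.9% (32.6 to 66.6) for Rufy4, 32.2% (21 to 48.2) for Tdo2, 30.1% (17.6 to 49.3) for Lrp4, 19.8% (8.04 to 42.5) for Pla2g4d and 4.03% (0.476 to 15.3) for Trim63.

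Per kilobase of mappable sequence, Slc10a6 led in siControl Dex at 2.1 cRPKM (1.87 to 2.34), clear of Rufy4 at 0.85 (0.698 to 1.03), which was clear of Tdo2 at 0.514 (0.421 to 0.62). Tdo2, Fam13a, Trim63 and Asic5 followed without separation of neighbours, and Pla2g4d and Lrp4 came last, overlapping each other. In siArglu1 Veh, Slc10a6 led at 0.955 (0.799 to 1.13), Rufy4, Asic5, Fam13a and Tdo2 followed with each overlapping the next of them, and Lrp4, Pla2g4d and Trim63 overlapped at the low end. In siArglu1 Dex, Slc10a6 at 4.81 (4.49 to 5.14) and Pla2g4d at 1.37 (1.24 to 1.51) were each clear of the next, Rufy4, Tdo2, Fam13a and Asic5 followed with each overlapping the next of them, and Lrp4 at 0.28 (0.241 to 0.323) and Trim63 at 0.119 (0.0715 to 0.185) were lowest, clear of each other. In siControl Veh every gene overlapped the next in order.

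Tdo2 and Asic5 are adjacent on chromosome 3 in the RefSeq order of GRCm38.p6, on opposite strands, and both were higher with Dex. Ctso, a cysteine cathepsin gene on the other side of Tdo2, had 893 reads with Veh and 2112 with Dex in siControl, and 1712 and 4334 in siArglu1. It was higher with Dex by a log2 ratio of 1.14 in siControl (1.03 to 1.26) and 0.93 in siArglu1, and higher with knockdown in Veh by 0.96, so that the values of 3 genes in a row were above 0 in both comparisons. The genes beyond them, Pdgfc on the side of Ctso and Gucy1b1 (Gucy1b3 in the table) on the side of Asic5, had Dex log2 ratios of 0.07 and 0.06 in siControl and 0.02 and 0.16 in siArglu1. Rufy4 overlaps the RefSeq span of Tns1, a focal adhesion gene on the opposite strand. Tns1 had 1131 reads with Veh and 2214 with Dex in siControl, and 897 and 2393 in siArglu1, with Dex log2 ratios of 0.87 (0.77 to 0.97) in siControl and just at the threshold of 1 in siArglu1. Because the library kit does not mark the strand, reads from the shared stretch cannot be told apart. Next to Trim63, the zinc transporter gene Slc30a2 had 73 reads with Veh and 144 with Dex in siControl, and 37 and 94 in siArglu1, with Dex log2 ratios of 0.87 and 0.92. Of the 14 genes next to the 8, 10 could be compared, with medians of 0.03 and 0.17. In each state 1 passed the Dex threshold, Ctso in siControl and Tns1 in siArglu1, where 0.320% and 0.328% of all genes passed. Within 4 genes on either side, a window set after the values were seen, 38 of 56 could be compared and the same single genes passed.

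**Figure D5:**
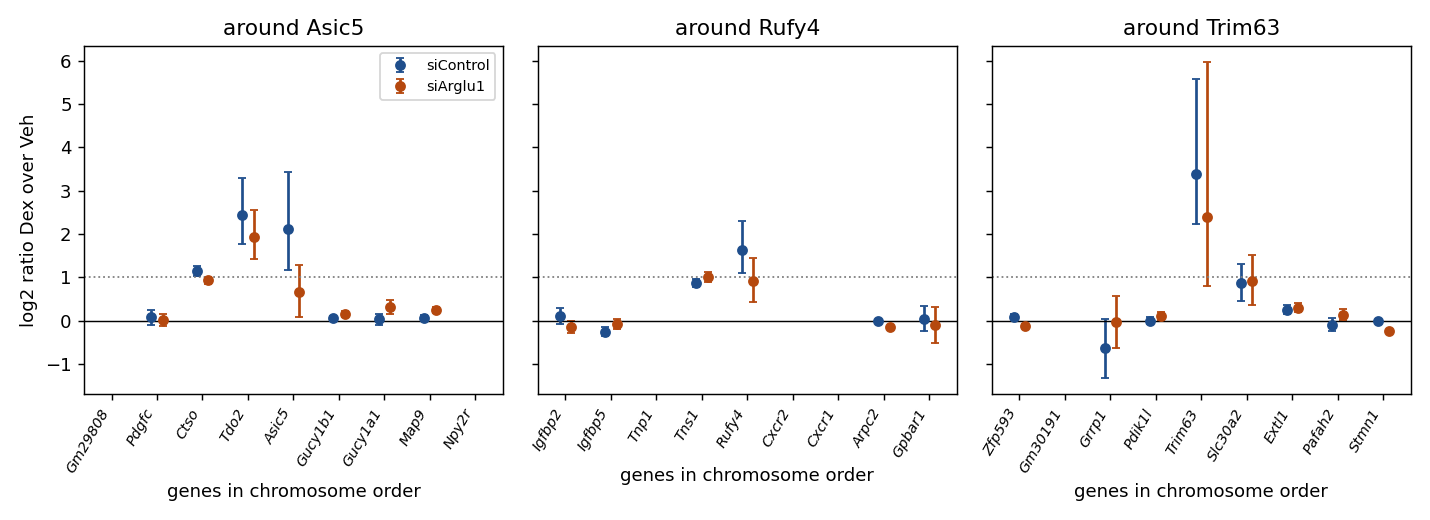
Dex log2 ratio, with 95% counting intervals, of the genes in RefSeq order around Asic5 (which includes Tdo2 and Ctso), Rufy4 and Trim63, in siControl and siArglu1. Names without a point had too few reads or no entry in the expression table, and the dotted line marks a log2 ratio of 1.

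Relatives of the 8 genes were looked up next. Over 8 lists of family or pathway genes, 21 of 42 relatives had enough reads, and none passed a log2 ratio of 1 with Dex in either direction in siControl, where their median was -0.06 and their range -0.60 (Asic3) to 0.20 (Slc10a4). In siArglu1 none passed either, with a median of 0.01 and a range of -0.31 (Dkk1) to 0.76 (Pla2g4c). With 0.320% and 0.328% of all genes passing upward, a count of 0 among 21 does not set the relatives apart, and the other 21 had too few reads to compare. In the kynurenine pathway only Afmid besides Tdo2 had enough reads to compare, at -0.25 and -0.13, and Ido1, which catalyses the same step as Tdo2, had no read. The group IV phospholipase genes on either side of Pla2g4d, Pla2g4e and Pla2g4f, had at most 3 reads in any library. Fbxo32, which encodes the other muscle atrophy ubiquitin ligase atrogin-1, had Dex log2 ratios of -0.06 and -0.24. The agrin gene Agrn, whose product binds Lrp4, was at -0.03 and 0.28, and the co-receptor Musk had at most 5 reads in any library. With knockdown in Veh, 1 of the 21 relatives was higher, against 7.00% of all genes, and 3 were lower, against 8.77%. Counts this small do not set the relatives apart. Slc10a4 was higher at 0.86, and Asic4 at -2.14, Asic3 at -0.90 and Pla2g4c at -0.83 were lower. Slc10a4 had 3059 reads with Veh and 3756 with Dex in siControl, and 5481 and 8249 in siArglu1. The other compared members of the family were below the threshold with knockdown, Slc10a3 at 0.64 in Veh and 0.46 in Dex and Slc10a7 at 0.52 and 0.61, all with intervals above 0.

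Of 14 textbook GR targets, 13 were in the table and 12 were compared. Per1, a gene of the circadian clock, alone passed in each state, where 0.320% of all genes passed in siControl and 0.328% in siArglu1. It had 780 reads with Veh and 3116 with Dex in siControl, and 330 and 2532 in siArglu1. Its Dex log2 ratios were 1.90 and 2.53. The chaperone gene Fkbp5 was at 0.68 and 0.67, the kinase gene Sgk1 at 0.67 and 0.76, and the transcription factor genes Bcl6 at 0.83 and 0.93 and Klf9 at 0.56 and 0.86. Of the rest, Cdkn1a was at 0.70 and 0.45, Ddit4 at 0.34 and 0.36, and Mt1 at 0.35 and -0.19. Errfi1 was at 0.12 and 0.14 and Tsc22d3 at 0.10 and 0.25. Dusp1 was at -0.15 and -0.08 and Mt2 at -0.14 and -0.05. The median of the list was 0.45 in siControl and 0.41 in siArglu1. Among 7 compared genes of GR and its chaperones none passed, with medians of 0.02 and 0.01. At these shares of all genes, a count of 0 among 7 does not set them apart.

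To name genes of like pattern, the distance over the 4 log2 CPM, each gene centred on its mean, was taken to all other compared genes. For Slc10a6 the nearest was Kcns2, a potassium channel subunit gene, at 1.31, with 5 and 19 reads in siControl (Veh, Dex) and 16 and 65 in siArglu1. For Trim63 it was Per1 at 1.11, followed by Usp18 at 1.82 with 119 and 339 reads in siControl and 55 and 124 in siArglu1. The Dex log2 ratios of Usp18 were 1.40 in siControl and 0.75 in siArglu1, and its knockdown log2 ratios were -1.08 in Veh and -1.73 in Dex. Those of Per1 with knockdown were -1.22 in Veh and -0.59 in Dex. The Dex log2 ratio of Per1 was larger in siArglu1 (2.53) than in siControl (1.90), the reverse of the order in Trim63. For Rufy4 it was Tenc1 at 0.296, with 260 and 735 reads in siControl and 285 and 852 in siArglu1. For Pla2g4d the nearest, Hif3a, was as far as 2, with no read in Veh and 38 with Dex in siControl, and 2 and 54 in siArglu1. Among the 8 themselves, Tdo2 and Fam13a were closest at 0.517 and Trim63 and Pla2g4d farthest at 3.88. These distances rest on 4 libraries, and those of Trim63 and Pla2g4d rest in Veh on 2 to 8 reads of these genes.

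Splicing values added little at these levels. The deposited tables hold 34 events in the 8 genes, of which 22 are cassette exons, 8 alternative acceptors and 4 alternative donors. None had a coverage score of LOW or better in 3 libraries. In siControl Veh and siArglu1 Veh no event reached that score, in siControl Dex 4 did and in siArglu1 Dex 5 did. All 4 in siControl Dex and 4 of the 5 in siArglu1 Dex are exons of Slc10a6, the fifth being an exon of Pla2g4d. The Slc10a6 exon at chr5:104038000-104038157 (mm9, 158 nucleotides) had a PSI, the percent of transcripts that include it, of 95.56 in siControl Dex and 87.5 in siArglu1 Dex. The exon at chr5:104041389-104041561 (mm9) had 100 and 97.5. The Pla2g4d exon at chr2:120095257-120095423 (mm9) had a PSI of 87.88 in siArglu1 Dex, and in the other 3 libraries its coverage score was N, the lowest. Inclusion of these exons was therefore not comparable between Veh and Dex at this depth.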

How the data were processed

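The authors aligned reads of poly(A) libraries (TruSeq V2, HiSeq2500), and per the labels Bowtie and the mm9 build were used, with versions not given in the sources used here. They deposited counts of reads per gene, not normalized, and RPKM corrected for mappability (cRPKM). A blank was taken as 0 reads, and 1114 genes had no cRPKM. The authors' 2 columns of Dex over Veh ratios were not used. They also deposited a PSI in percent with a coverage score for each splicing event.

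TMM scaling was done in edgeR 4.0.16 under R 4.3.3, and log2 ratios of CPM took a prior count of 1. Genes needed 75 reads in sum. With 1 library per group, calls were by size, 1 for Dex and 0.81 for knockdown on the log2 scale. Intervals are exact conditional binomial limits for ratios, exact Poisson limits for levels, the conditional odds ratio for differences of ratios, and combined Poisson limits for gains, at 95% and for counting error only. Alternatives were DESeq2 1.42.0 size factors, no scaling factor, other prior counts, minimums and thresholds, cRPKM plus 0.05, removal of the trend on length, and an additive edgeR model (adjusted p of 0.05). Scripts were tested on simulated data. Named were the 8 genes, listed genes that passed, adjacent genes, and the nearest in pattern for 4 of the 8. The members and lists were chosen with earlier results of these data known. Sequences and gene order are RefSeq GRCm38.p6, and its gene coordinates were not mixed with mm9.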

Additional observations from a re-analysis of the deposited data

Results flagged for a closer look

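The knockdown values of Rufy4 had opposite signs in the 2 treatments, neither of them past the threshold. Its log2 ratio of siArglu1 over siControl was 0.56 in Veh, from 32 and 47 reads, and -0.16 in Dex, from 109 and 119 reads. Both intervals include 0. The difference between them, which is also the difference between its Dex ratios, was -0.74 with a counting interval of -1.54 to 0.05. Rufy4 was listed on Dex over Veh in siControl, which favours a low siControl Veh level and a high siControl Dex level. The selection thus favours the signs seen. With 1 library in each group the difference was not tested against replicate error.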

How the results depend on the processing

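Of 272 values of single genes that were recomputed, 262 stayed within their counting interval, 10 moved (6 in the additive model and 4 in cRPKM) and none reversed. In the additive model, the Dex ratios of Slc10a6 went from 3.33 (siControl) and 2.29 (siArglu1) to 2.62. Its knockdown ratios went from 2.22 (Veh) and 1.19 (Dex) to 1.43. Asic5 went from 2.11 to 1.15 with Dex in siControl and from 1.92 to 0.89 with knockdown in Veh. In cRPKM, the Dex ratios of Pla2g4d went to 1.87 (siControl) and 4.15 (siArglu1). Those of Lrp4 went to 1.08 and 1.87. DESeq2 size factors changed no call of the 8 genes. Counts of all genes moved with the settings. With Dex in siControl, 40 higher and 18 lower became 913 and 934 without a minimum, 14 and 1 at 300 reads, 21 and 8 in cRPKM, 124 and 6 in the additive model, and 14 and 2 at a threshold of 1.5. With Dex in siArglu1, 41 and 8 became 610 and 741 without a minimum, 12 and 0 at 300 reads, 22 and 1 in cRPKM, 124 higher in the additive model, 12 and 1 at 1.5, and 5 lower with a prior count of 3. With knockdown in Veh, 875 and 1096 became 1887 and 2431 without a minimum, 3847 and 3857 in the additive model, and 542 and 689 at a threshold of 1. With knockdown in Dex, 773 and 741 became 1888 and 1840, 3847 and 3857, and 495 and 472. Of the 8 genes, Trim63 made 1 lower in Veh with a prior count of 0.5 (-0.84), without the length trend (-0.89) and in the additive model (-1.71), the 5 higher in Veh became 2 in cRPKM and 3 at a threshold of 1, and in Dex there were 0 lower at 300 reads, where Trim63 left the comparison, and 5 higher in the additive model. The cause was not tested. Trim63 and Pla2g4d in Veh rest on 2 to 8 reads, which limits every ratio that uses them.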
